A study of Homo sapiens with 6 samples.

Results

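PRDX1, GLRX2, GPX3 and SELENOP are 4 genes that act on peroxides, on protein thiols or in selenium supply. They were taken by gene name from a deposited table of 2778 features, in which each name occurs on 1 row. Poly(A)-selected RNA was sequenced from untreated cells of A375, an established line of human melanoma. Of the 6 libraries, 3 were of wildtype A375 (WT) and 3 of A375 that overexpressed human CYGB (CYGB-OE), the gene of the haem protein cytoglobin. The labels name no empty-vector control and do not say whether the CYGB-OE cells are 1 clone or a pool, nor whether replicates were cultured separately. The p-values therefore cover the spread of these replicates alone, and that spread may be technical.

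Hydrogen peroxide is removed in cells by peroxiredoxins and glutathione peroxidases, which take electrons from thioredoxin and from glutathione. Glutaredoxins use glutathione to reverse disulfides between glutathione and protein cysteines. Several of these enzymes are selenoproteins, in which a UGA codon, otherwise a stop signal, is read as selenocysteine. In the whole animal, SELENOP (selenoprotein P) is the plasma protein that carries selenium to tissues, and GPX3 is the glutathione peroxidase of plasma.

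PRDX1, the cytosolic peroxiredoxin 1, rose 2.24-fold (95% interval 1.98 to 2.52), and GLRX2, glutaredoxin 2, rose 2.09-fold (1.77 to 2.46). GPX3 rose 3.16-fold (2.33 to 4.28). These sizes rest on the level set between the groups: under trimmed-mean (TMM) scaling over the whole table the log2 fold changes of PRDX1, GLRX2 and GPX3 were 2.36, 2.26 and 2.86, in place of 1.16, 1.06 and 1.66, and outside the intervals given. SELENOP was 2.9-fold lower in CYGB-OE (1.61 to 5.22), at 6 to 40 counts per library, and its call depended on the scaling between groups. Of the 4 genes, 3 were called higher and 1 lower. In the table as a whole 28.9% of the 2468 features tested were called higher and 70.9% lower, 99.8% in all, so being called says nothing particular about these genes. Without CYGB-OE replicate 1 the same 3 were higher and SELENOP lower, where 28.1% of features were higher and 70.8% lower, 98.9% in all.

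Their catalytic residues lie in the reference coding sequences below (GENCODE release 29, GRCh38, 5′ to 3′), shown because they set the cysteine enzymes apart from the selenoproteins. Capitals mark the codon of the peroxide-reacting cysteine of PRDX1 (codon 52) and that of its resolving cysteine (codon 173), both written TGC. They also mark a pair of cysteine codons in GLRX2 (78 and 81), and the in-frame TGA codons annotated as selenocysteine in GPX3 (codon 73), SELENOP (codon 59) and SELENOM (codon 48).
PRDX1 chr1:45515731-45515787, minus strand: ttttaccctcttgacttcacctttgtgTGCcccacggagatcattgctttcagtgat
PRDX1 chr1:45511383-45514531, minus strand, across an intron: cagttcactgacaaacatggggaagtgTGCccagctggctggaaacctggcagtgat
GLRX2 chr1:193097680-193097739, minus strand: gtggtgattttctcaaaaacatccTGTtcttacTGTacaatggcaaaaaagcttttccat
GPX3 chr5:151025442-151026904, plus strand, across an intron: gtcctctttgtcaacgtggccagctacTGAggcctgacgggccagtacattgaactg
SELENOP chr5:42807108-42808206, minus strand, across an intron: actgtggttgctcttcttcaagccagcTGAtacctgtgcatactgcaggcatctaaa
SELENOM chr22:31105687-31107391, minus strand, across an intron: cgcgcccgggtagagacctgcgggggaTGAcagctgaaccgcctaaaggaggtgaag

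SELENOP differs from the other selenoproteins shown in having 10 such codons among 381, where GPX3 has 1 among 226 and SELENOM 1 among 145. PRDX1 (199 codons) and GLRX2 (165 codons) have none. The last 9 of the SELENOP codons fall within 1 stretch of the last exon, at chr5:42800729-42800971 on the minus strand, printed here from codon 299 to 379 with each TGA in capitals. The same stretch matters for the counts of SELENOP below.
SELENOP codons 299 to 379: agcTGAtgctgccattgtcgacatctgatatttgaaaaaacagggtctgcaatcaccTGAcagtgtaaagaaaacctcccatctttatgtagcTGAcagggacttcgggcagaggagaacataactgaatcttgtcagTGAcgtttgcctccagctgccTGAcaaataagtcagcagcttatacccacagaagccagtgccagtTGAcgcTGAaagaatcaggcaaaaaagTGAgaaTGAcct

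Before the values of the 4 genes, the table as a whole set limits on them. Once its empty middle was centred at 0, the range of log2 ratios from -0.995 to 0.995 held none of the features, so the table holds features selected for a difference of about 2-fold between these same libraries. A call is therefore not independent evidence of a difference. The table's totals ran from 1533260 to 2801576 counts per library and are sums over selected features, not library depths. CYGB had 33 to 47 counts in the WT libraries and 20740 to 26267 in the CYGB-OE libraries, as the labels say. Replicate 1 of CYGB-OE was the least like its group: its median absolute log2 difference from the other CYGB-OE libraries, over the features tested, was 0.461 and 0.474, against 0.214 between those libraries and 0.178 to 0.187 among WT. The main fit called 713 features higher and 1749 lower (28.9% and 70.9% of those tested, 99.8% in all). These are the shares to set beside the marker calls below. With TMM over the whole table, every log2 fold change lay 1.2 higher. There, 714 features were called higher and 480 lower (28.9% and 19.4% of those tested, 48.4% in all). Of the fixed marker lists, 5 of 14 melanocyte genes were in the table and all 4 tested were called lower, but none of the 4 under TMM over the table, where EDNRB was at -0.30, RAB38 at -0.22, TYRP1 at -1.35 and S100A1 at 0.09 (edgeR adjusted p = 0.056, 0.25, 0.119 and 0.555). The summed normalized counts of the 5 were 6825 to 7466 in WT and 2832 to 3317 in CYGB-OE. S100A1 was the largest part, with means of 4361 and 2021. DCT, an enzyme of melanin synthesis, was too low to be tested. It had 2, 13 and 15 counts in WT and 0 counts in each CYGB-OE library. Fibroblast genes (2 of 10 in the table, 1 tested, higher) summed to 1.1 to 3.95 in WT and 38.4 to 193 in CYGB-OE, and keratinocyte genes (2 of 8, both higher) to 42.5 to 64.9 and 190 to 227. Endothelial genes (2 of 8, both lower) summed to 166 to 191 and 16.8 to 34.1, and leukocyte genes (3 of 10, 1 higher and 2 lower) to 319 to 386 and 276 to 413. Among these, TIE1 of the endothelial and ITGAX of the leukocyte genes lost their calls under TMM over the table (adjusted p = 0.1 and 0.117). Their part in the results below was not tested. In bulk RNA, fewer cells of a kind and less RNA per cell cannot be told apart.

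PRDX1 (ENSG00000117450, GRCh38 chromosome 1, 45511036 to 45523047, minus strand) had 8616, 12234 and 8677 counts in the WT libraries (replicates 1, 2 and 3, here and below) and 20679, 18327 and 22973 in the CYGB-OE libraries. Divided by the size factors, these were normalized counts of 9475, 9669 and 9222 in WT and 22058, 20465 and 20878 in CYGB-OE. The groups lay well apart, and the libraries within each were close. The means were 9456 ± 224 and 21130 ± 827 (SD, n = 3 each), and the log2 fold change between them was 1.16 (SE 0.08; adjusted p = 5.23e-06 by edgeR's quasi-likelihood test). PRDX1 was the 40th most abundant feature of the table by count in WT and the 15th in CYGB-OE. Its spread was small as well: the coefficient of variation was 2.37% in WT, where counting error alone gives 1.01%. Of its annotated exon bases, 24.9% also lie in exons of MMACHC on the opposite strand, and no source used here says whether the counting used strand. A processed pseudogene, PRDX1P1, is annotated too, so some PRDX1 reads may have been split or dropped.

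GLRX2 (ENSG00000023572, chromosome 1, 193090866 to 193106114, minus strand) encodes a glutaredoxin with a mitochondrial form. Its counts were 663, 798 and 602 in WT and 1299, 1229 and 1559 in CYGB-OE. The normalized counts were 729, 631 and 640 in WT and 1386, 1372 and 1417 in CYGB-OE. The CYGB-OE libraries had a coefficient of variation of 1.64%, and WT replicate 1 was the highest of its group. From 667 ± 54.4 to 1392 ± 22.8 (SD, n = 3 each), GLRX2 rose by 1.06 ± 0.10 (SE) on the log2 scale (edgeR adjusted p = 2.7e-05). That places GLRX2 close to the inner edge of the table: of the 713 features called higher, 12.5% changed less. PRDX1 had 25.5% below it and GPX3 62.8%, and the median log2 fold change of those features was 1.43. Exons of TROVE2 on the opposite strand cover 7.75% of the GLRX2 exon bases.

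GPX3 (ENSG00000211445, chromosome 5, 151020438 to 151028993, plus strand) had 78, 102 and 73 counts in WT and 296, 192 and 266 in CYGB-OE. No other annotated gene overlaps it. Normalized counts were 85.8, 80.6 and 77.6 in WT and 316, 214 and 242 in CYGB-OE. The highest CYGB-OE value belonged to replicate 1, the library that stood apart, but the lowest still exceeded each WT value. The means of 81.3 ± 4.14 and 257 ± 52.4 (SD, n = 3 each) differed by 1.66 ± 0.19 (SE) on the log2 scale (edgeR adjusted p = 6.38e-05), or by 1.49 without CYGB-OE replicate 1. In WT the coefficient of variation, 5.09%, was below the 10.9% that counting error alone gives on average, and in CYGB-OE it was 20.4% against 6.31%.

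SELENOP (ENSG00000250722, chromosome 5, 42799880 to 42887392, minus strand) had 23, 40 and 34 counts in WT and 6, 15 and 10 in CYGB-OE. Normalized counts were 25.3, 31.6 and 36.1 in WT and 6.4, 16.8 and 9.09 in CYGB-OE. The groups did not overlap, and replicate 1 was the lowest CYGB-OE library. The means were 31.0 ± 5.45 and 10.8 ± 5.37 (SD, n = 3 each), and the log2 fold change was -1.54 ± 0.37 (SE; edgeR adjusted p = 0.0035). Under TMM over the table the value was -0.35 (edgeR adjusted p = 0.518), and adjusted over all 58780 annotated genes the main value had an adjusted p = 0.0833, where 19.4% of features were called higher and 54.3% lower, 73.7% in all. Over all alternatives run, the adjusted p ranged from 0.0019 to 0.518. From the raw counts in WT, 97 over its libraries, counting error alone gives a coefficient of variation of 17.6% on average, and 17.6% was observed. In CYGB-OE the coefficient was 50% against 31.1% from counting.

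The SELENOP count also shares ground with neighbours. On the opposite strand, the antisense gene AC008945.1 (42806394 to 42806997) overlaps exons of SELENOP, to an extent not measured here. It is absent from the table. The last exon of SELENOP, 42799880 to 42801331, holds 1452 of the 2243 bases of its coding transcript (64.7%). All 1452 lie inside exons of CCDC152, a coiled-coil protein gene on the opposite strand, as do the 9 clustered TGA codons printed above. Without a known strand setting, reads there cannot be assigned to either gene, and a strand-blind count could have dropped them. CCDC152 is in the table as well, with 37, 49 and 30 counts in WT and 24, 5 and 14 in CYGB-OE, with log2 fold change -1.33 ± 0.44 (SE; edgeR adjusted p = 0.0154), which became -0.14 under TMM over the table (adjusted p = 0.831). CYGB-OE replicate 1 was the highest of its group for CCDC152 and the lowest for SELENOP.

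**Figure D1:**
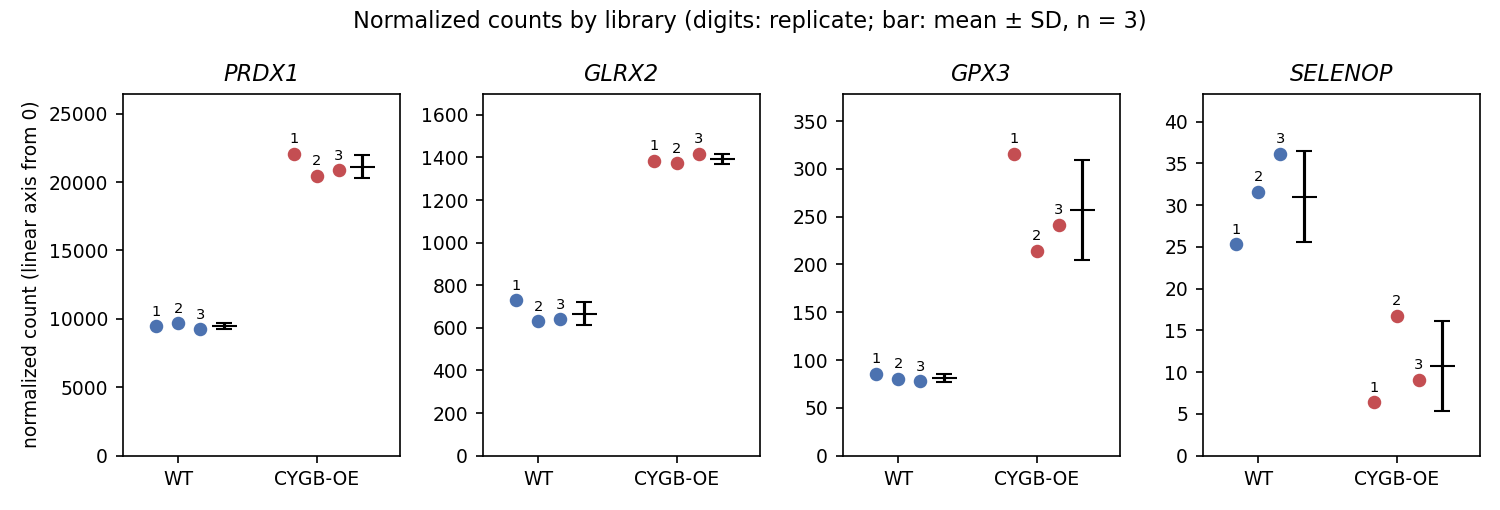
Normalized counts (linear axes from 0) of PRDX1, GLRX2, GPX3 and SELENOP in the 3 WT (blue) and 3 CYGB-OE (red) libraries, with digits for replicates and bars for mean ± SD. The groups did not overlap for any of the 4 genes; GPX3 was highest and SELENOP lowest in CYGB-OE replicate 1.

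All 4 genes had groups that did not overlap, as did 98.3% of the features of the table, which were selected for a difference. In normalized counts per kilobase of the longest coding transcript, a level that can be set between genes, PRDX1 stood at 7663 in WT and 17130 in CYGB-OE. GLRX2 followed at 589 and 1230, GPX3 at 46.3 and 146, and SELENOP at 13.8 and 4.79. The order of these levels was the same in both groups, and PRDX1, GLRX2 and GPX3 differed by far more than their spread between libraries. For GPX3 and SELENOP in WT this depends on the reads shared with CCDC152. If all reads in the shared bases were dropped, the SELENOP count belongs to the 791 transcript bases outside CCDC152 exons. The WT libraries would then stand at 32.0, 40.0 and 45.7 per kilobase, which overlaps GPX3 at 48.8, 45.9 and 44.2. The CYGB-OE libraries would stand at 8.09, 21.2 and 11.5, below GPX3 at 180, 122 and 138. With all annotated exon bases as the length, GLRX2 stood at 107 and 224, since 4911 of its 6210 exon bases belong to a transcript annotated for nonsense-mediated decay alone, and the order was unchanged.

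**Figure D2:**
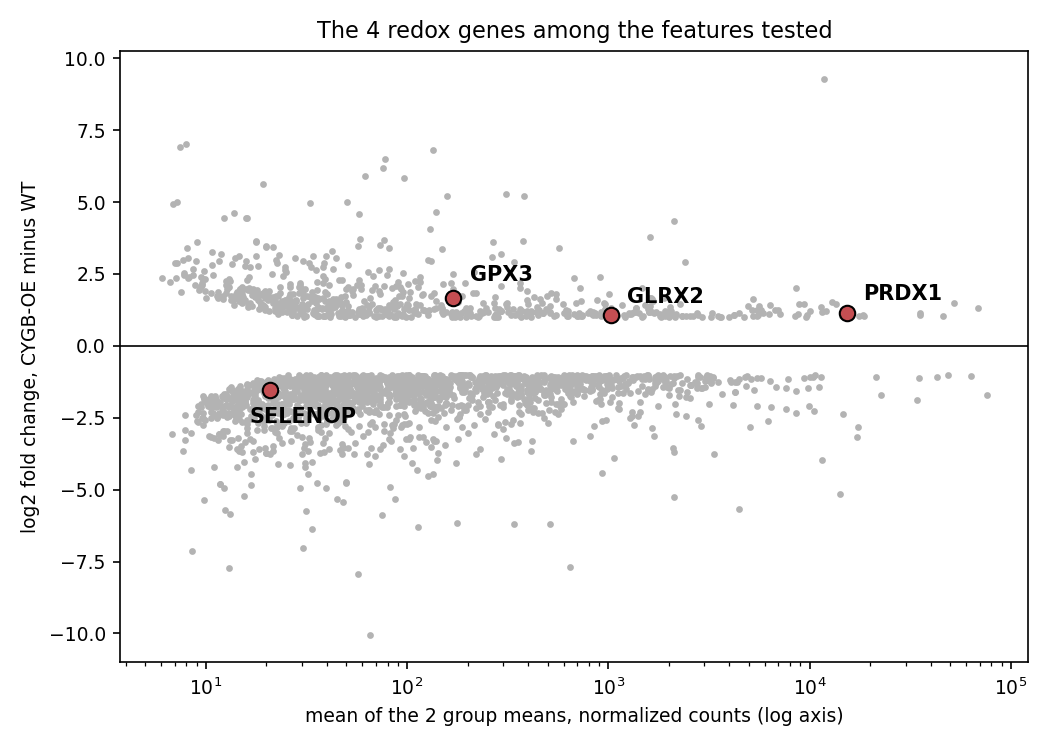
Log2 fold change (CYGB-OE minus WT) against the mean normalized count (log axis) of the 2468 features tested (grey), with the 4 redox genes in red. PRDX1 and GLRX2, at 1.16 and 1.06, lie near the inner edge of the higher features; no feature lies around 0.

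Ratios of 2 genes within a library do not depend on how libraries are scaled, so they separate the 4 genes from each other without that choice. The log2 ratio of PRDX1 to GLRX2 counts was 3.70, 3.94 and 3.85 in WT and 3.99, 3.90 and 3.88 in CYGB-OE. These overlapped, with a difference of 0.10 between group means (exact permutation test, two-sided, p = 0.4, adjusted p = 0.4 over 6 pairs), which does not show that both genes changed alike. GPX3 was higher relative to both in each CYGB-OE library than in any WT library. The PRDX1 to GPX3 log2 ratio was 6.78 to 6.90 in WT and 6.12 to 6.57 in CYGB-OE (difference -0.48), and that of GLRX2 to GPX3 was 2.96 to 3.08 and 2.13 to 2.67 (difference -0.57). For both pairs the exact permutation p was 0.1, the smallest that 3 against 3 libraries can give, and 0.12 adjusted over the pairs.

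The ratios to SELENOP differed most between the groups. GPX3 to SELENOP had log2 ratios of 1.74, 1.34 and 1.09 in WT and 5.51, 3.63 and 4.67 in CYGB-OE, a difference of 3.21. PRDX1 to SELENOP differed by 2.74 and GLRX2 to SELENOP by 2.64, with no overlap between groups (exact permutation p = 0.1 each, adjusted p = 0.12). These ratios carry the counting error of SELENOP and the uncertainty from CCDC152. Their direction, and a size of about 1.99 or more on the log2 scale, were fixed by the selection of the table, whose empty band is 1.99 wide, since SELENOP lies below the band and the 3 enzymes above it. The lack of overlap is therefore no evidence of a difference.

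**Figure D3:**
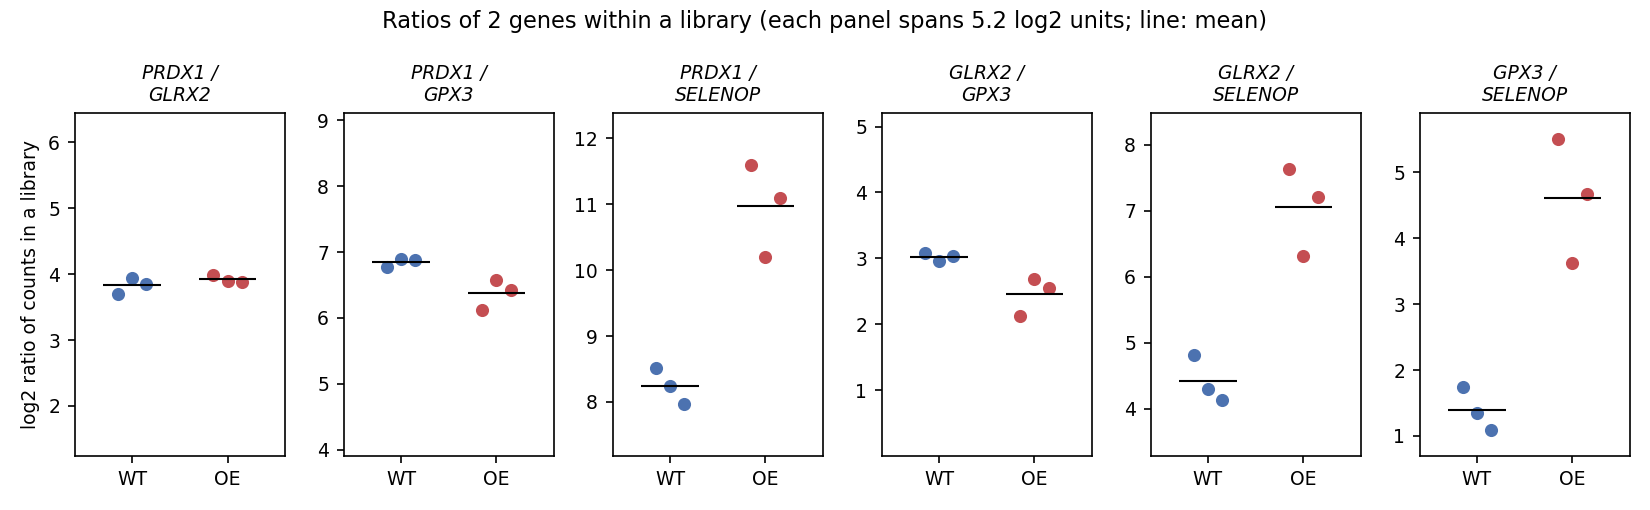
Log2 ratios of the counts of 2 genes within each library for the 6 pairs; each panel spans the same number of log2 units and lines are group means. WT and CYGB-OE (OE) overlap for PRDX1 to GLRX2 alone, and the widest shift, 3.21, is that of GPX3 to SELENOP.

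Few other genes of the pathway were in the table. Of 37 listed genes of peroxide and thiol redox enzymes and their regulators, 4 were present: PRDX1, GLRX2 and GPX3, which rose, and TXNIP, which fell. TXNIP binds and inhibits thioredoxin, the electron donor of peroxiredoxins, and had 26118, 31815 and 27428 counts in WT and 556, 787 and 962 in CYGB-OE (log2 fold change -5.14, edgeR adjusted p = 4.72e-07). It lay below 0 under TMM over the table too, at -3.94. Over all features tested, 28.9% were called higher and 70.9% lower. The median of the 4 was 1.11, beside -1.29 over all features tested, and 2.31 beside -0.09 under TMM over the table. PRDX1, GLRX2 and GPX3 were chosen with earlier results of these data known. This median therefore restates their rise and is no separate result for the list, which was not tested as a set. The other peroxiredoxins and glutathione peroxidases, catalase, sulfiredoxin, and the thioredoxins and their reductases were not analysed here.

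Selenoprotein RNAs moved both ways. Of 25 genes with an annotated selenocysteine, 3 were in the table: GPX3, SELENOP and SELENOM, a selenoprotein of the endoplasmic reticulum. SELENOM fell from 1056, 984 and 936 normalized counts in WT to 336, 259 and 304 in CYGB-OE (-1.73 ± 0.13, SE, on the log2 scale; edgeR adjusted p = 8.36e-06). Its groups were well separated, and the value was -0.53 under TMM over the table (adjusted p = 0.00849). On the wider list of 35 selenoproteins and selenium-handling genes the same 3 were present, 1 higher and 2 lower. Over all features tested 28.9% were called higher and 70.9% lower, so these counts are near the background. The median of the 3 was -1.54, beside -1.29 over all features tested, and is the value of SELENOP. Under TMM over the table that median was -0.35, and 1 of the 3 was called lower.

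Glutathione is the electron donor of GLRX2 and GPX3. Of 36 listed genes of its synthesis, breakdown, precursor supply and conjugation, 4 were in the table, of which 3 rose and 1 fell. Their median was 1.08, beside -1.29 over all features tested, of which 28.9% were called higher and 70.9% lower. GCLM, the modifier subunit of the enzyme that catalyses the rate-limiting step of glutathione synthesis, had 816 ± 61.2 normalized counts in WT and rose to 1780 ± 300.1 in CYGB-OE (1.12 on the log2 scale, edgeR adjusted p = 8.69e-05). SLC7A11, the cystine importer, rose from 1528 ± 96.5 to 3124 ± 673 (1.03, adjusted p = 0.000312), and CHAC2, which degrades glutathione, from 289 ± 38.1 to 694 ± 33.7 (1.26, adjusted p = 3.77e-05). OPLAH, which returns the breakdown product oxoproline to glutamate, fell from 396 ± 13.3 to 161 ± 40.0 (-1.29, adjusted p = 0.000266; -0.10 and not called under TMM over the table, adjusted p = 0.74). Within CYGB-OE, replicate 1 held the highest GCLM value, as for GPX3 and PRDX1, and the lowest SLC7A11 value.

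PRDX1, GCLM and SLC7A11 are also known targets of NRF2, a transcription factor that responds to oxidants. They were the only 3 of 40 listed NRF2 targets in the table; all 3 rose, with a median of 1.12. Of all features tested, 99.8% were called and 28.9% were called higher, so that these genes were called is near the background. The other 37 were not analysed here. Of 37 listed genes that remove superoxide or produce peroxide, 10 were in the table and 9 tested, of which 1 rose and 8 fell (median -2.11). Over all features tested 70.9% were called lower, with a median of -1.29, so 8 of 9 is no result particular to these genes. The listed gene DUOXA1, too low to be tested, had 13, 12 and 13 counts in WT and 1 in each CYGB-OE library. XDH, xanthine dehydrogenase, rose from 24.1 ± 3.67 to 83.2 ± 23.8 normalized counts. SOD2, the mitochondrial superoxide dismutase that makes peroxide, had a log2 fold change of -3.98, the NADPH oxidase NOX4 of -2.46 and the NADPH oxidase activator NOXA1 of -2.83. LOXL4, PAOX, MAOB, MAOA and DDO, all oxidases that release peroxide, had -2.09, -2.41, -2.11, -1.13 and -1.01. Under TMM over the table, MAOA and DDO turned to 0.07 and 0.19. SOD2, NOX4, NOXA1 and LOXL4, 4 of the 9 tested, were still called lower there, beside 19.4% of all features tested. The list was not tested as a set.

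**Figure D4:**
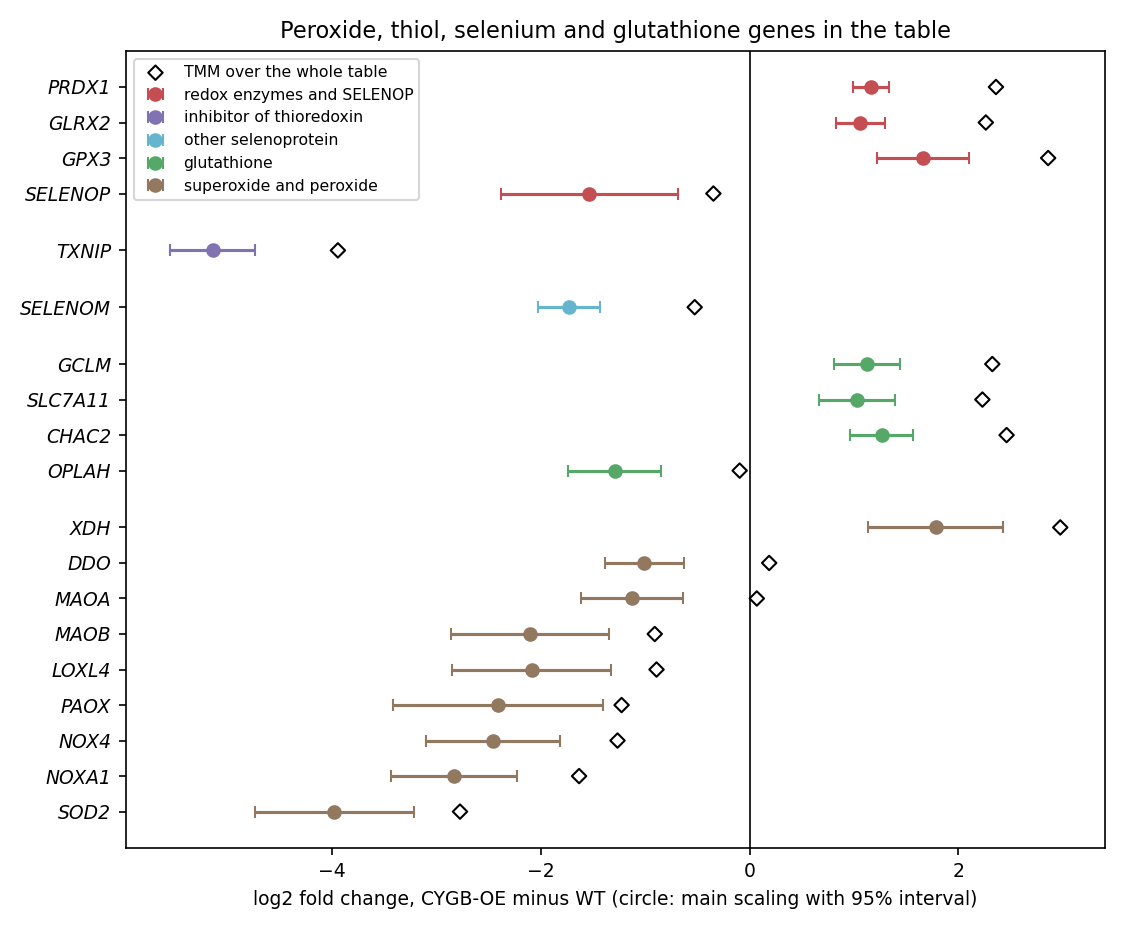
Log2 fold changes (CYGB-OE minus WT) with 95% intervals (circles) of the pathway genes tested, beside the value under TMM over the whole table (open diamonds). PRDX1, GLRX2, GPX3, GCLM, SLC7A11, CHAC2 and XDH lie above 0 under both scalings; MAOA and DDO change sign.

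The genes whose pattern was nearest were sought among 1656 protein-coding features tested, by the root mean square distance of their 6 library values on the log2 scale, each less the WT mean. TIPIN, a partner of the replication fork protein TIMELESS, lay nearest to PRDX1 (distance 0.0297), then SH3TC2 (0.0426) and ZNF326 (0.0469). UBASH3B (0.0676), the spliceosome subunit SNRPG (0.0741) and TIPIN (0.0801) lay nearest to GLRX2. For GPX3 they were the nuclear receptor coactivator NCOA5 (0.0857), the neurofilament NEFL (0.094) and the transcription factor ATF5 (0.12). For SELENOP they were LMX1B (0.155), GOLT1A (0.169) and SLC38A3 (0.204), whose larger distances go with its low counts. With 6 libraries in 2 groups, the likeness is mostly that of the fold change and of CYGB-OE replicate 1.

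Upstream sequence was found in the RefSeq table (GRCh38.p14) for 3 of the 4 genes, GLRX2, GPX3 and SELENOP. The 250 bases before a RefSeq start site are printed to set the genes that rose beside the one that was lower. By the GENCODE coordinates above, each printed window lies wholly or in part inside the span of its own gene. Both strands were searched for 5 motifs, and matches are in capitals. TGACNNNGC is the core of the antioxidant response element, which NRF2 binds. TGANTCA is bound by AP-1 and GTAAACA by forkhead factors. GGGCGG is the GC box and TATAAA the TATA box. No match overlapped that of another motif.
GLRX2 chr1:193105415-193105664, minus strand: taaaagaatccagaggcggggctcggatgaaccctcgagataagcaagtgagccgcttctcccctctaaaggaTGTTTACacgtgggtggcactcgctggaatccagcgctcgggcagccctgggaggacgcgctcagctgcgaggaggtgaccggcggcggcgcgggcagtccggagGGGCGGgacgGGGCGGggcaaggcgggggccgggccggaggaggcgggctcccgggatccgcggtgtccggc
GPX3 chr5:151020341-151020590, plus strand: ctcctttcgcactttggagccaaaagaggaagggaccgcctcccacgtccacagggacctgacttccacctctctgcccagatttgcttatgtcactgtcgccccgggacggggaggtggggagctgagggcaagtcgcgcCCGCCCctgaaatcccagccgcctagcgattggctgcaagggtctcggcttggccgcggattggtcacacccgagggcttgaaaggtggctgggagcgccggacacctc
SELENOP chr5:42811893-42812142, minus strand: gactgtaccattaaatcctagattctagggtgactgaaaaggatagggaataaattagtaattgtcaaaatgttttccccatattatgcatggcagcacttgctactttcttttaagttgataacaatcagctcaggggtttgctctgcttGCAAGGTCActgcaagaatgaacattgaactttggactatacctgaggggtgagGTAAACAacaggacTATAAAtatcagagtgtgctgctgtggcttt

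SELENOP held TATAAA from -31 to -26, GTAAACA from -45 to -39 and TGACNNNGC on the opposite strand from -99 to -91, counted from the start site. Of 35116 promoters of the same length, 10.7%, 2.98% and 10.9% held these. GPX3 held 1 GC box, from -109 to -104 on the opposite strand, and GLRX2 held 2, from -72 to -67 and -62 to -57, and GTAAACA on the opposite strand from -177 to -171. GC boxes stood in 42.6% of all promoters. TGANTCA, in 6.57% of all, was found in none of the 3. The other GLRX2 start sites in the table held no match. Upstream sequence was also searched for 3 pathway genes. GCLM, which rose, held TGACNNNGC from -34 to -26 and a GC box from -96 to -91, both on the opposite strand. CHAC2, which rose too, held no match. TXNIP, which fell, held GTAAACA from -124 to -118 at 1 start site and no match at its other. A match is a description of letters and shows neither binding nor regulation in these cells.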

How the data were processed

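The authors deposited a table of raw counts, 1 column for each of the 6 libraries, per its headers. Trimmomatic 0.36, STAR 2.5.2b, featureCounts and Subread 1.5.2 made it on GRCh38, per the submitters' processing notes. Neither the annotation used for counting nor its use of strand is given there. Of 2778 features, 163 are unnamed loci, with 1.25% to 1.64% of a library's counts; they were kept in the fit. Coordinates, lengths and overlaps came from GENCODE release 29, which held 2611 of 2615 identifiers.

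Counts were tested with edgeR 4.0.16 (R 4.3.3) by the quasi-likelihood F test, two-sided, with filterByExpr (minimum count 10), robust shrinkage and a design of group alone. P-values were adjusted by Benjamini-Hochberg over the 2468 features tested, with a threshold of 0.05. TMM factors were taken among the libraries of a group. Between groups, the centre of the empty band of log2 ratios was placed at 0. This assumes that the authors' selection was symmetric, which was not tested. Dividing counts by the resulting factors gave normalized counts; intervals are 95%. All 4 genes passed the filter, SELENOP in 5 of 6 libraries (above 5.1 CPM of the table totals) and the others in 6. Log2 ratios within libraries used a prior count of 0.5 and exact permutation tests (scipy 1.17.1).

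The members, the lists (5 of pathways, 5 of markers) and the scaling were chosen with earlier results of these data known. The text names the 4 members, CYGB, genes of the pathway lists in the table (at most 10 a list), some of the marker genes, and the 3 nearest patterns of each member. CCDC152, AC008945.1, MMACHC and TROVE2 are named for overlap. The values of CCDC152 were seen before it was chosen. On simulated counts for 2447 features in the CYGB-OE against WT design, edgeR recovered 71.8% of 2-fold and 100% of 4-fold changes, with 8 false calls. The shares were 62.4% and 100% with DESeq2 1.42.0, and 71.8% and 100% with voom of limma 3.58.1. The simulated features were not selected, most were unchanged, and all had the same biological spread in both groups. The fit was given the true size factors. These shares and false calls therefore do not carry over to the selected table. Alternatives were other scalings, filters, tests, a wider adjustment, the replicate block and leaving out each library; leaving out a library kept the size factors of the 6.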

Additional observations from a re-analysis of the deposited data

How the results depend on the processing

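PRDX1, GLRX2 and GPX3 kept their direction and call under all 17 alternatives run for each, and SELENOP under 12 of 16. At least 50 counts in 3 libraries removed SELENOP from the test. The other scalings raise every log2 fold change, so they could not turn a rise into a fall. Features called higher numbered 713 in the main fit, 714 under each other scaling and 708 to 751 with single libraries left out. Keeping this call therefore says nothing particular about PRDX1, GLRX2 and GPX3. SELENOP kept its direction but lost its call at -0.35 with TMM over the whole table, -0.34 with DESeq2 size factors, -0.68 with upper-quartile factors, and at -1.54 when adjusted over all annotated genes (edgeR adjusted p = 0.518, 0.517, 0.129 and 0.0833). These scalings add a constant of 1.2, 1.21 and 0.86 to every log2 fold change (0.35 for total counts). Under TMM, DESeq2 size factors and upper-quartile factors, 480, 476 and 910 of 2468 features tested were lower. The stricter filter tested 1637 features, of which 418 were higher and 1215 lower. With the wider adjustment 1340 of 2468 were lower (54.3%). Beside these, 0 of 4 members were lower under those 3 scalings and the wider adjustment, and 0 of 3 under the stricter filter. In the same settings, listed selenium genes lower numbered 1 of 3, or 1 of 2 under the stricter filter. Listed superoxide and peroxide genes lower numbered 4 of 9 with TMM and with DESeq2 size factors. Listed glutathione genes lower numbered 0 of 4 there and with upper-quartile factors. MAOA turned to 0.069 and 0.072, DDO to 0.19 and 0.19, and S100A1 to 0.090 and 0.098 with TMM and DESeq2 size factors, by the same constant. LMX1B, GOLT1A and SLC38A3 lost their calls under those 3 scalings.

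Leaving out single libraries gave log2 fold changes of 9.27 to 9.33 for CYGB, 1.13 to 1.18 for PRDX1, 1.02 to 1.13 for GLRX2, 1.49 to 1.77 for GPX3 and -1.97 to -1.29 for SELENOP, all called. Differences in log2 ratio were 0.03 to 0.15 for PRDX1 to GLRX2, -0.58 to -0.35 for PRDX1 to GPX3, -0.69 to -0.41 for GLRX2 to GPX3, and 2.35 to 3.70 for the 3 ratios to SELENOP. With the replicate block, the log2 fold changes were 1.16 for PRDX1, 1.06 for GLRX2, 1.64 for GPX3 and -1.56 for SELENOP, with each call kept. Same-numbered deviations correlated at -0.01, -0.06 and -0.002 across features, so no shared shift by replicate number was seen. These values cannot tell whether same-numbered libraries were prepared together. The counts of SELENOP, 97 in WT and 31 in CYGB-OE in all, limit its precision. The table's totals give no library depth, and the level between groups rests on the assumption that features were selected symmetrically.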
